A study of Mus musculus with 6 samples.

Results

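The potassium channel genes were the genes whose symbol begins with Kcn in the table of RPKM (reads scaled to gene length and library size) from P14 mouse retina. The table listed 11339 genes, and 54 of them were Kcn genes. The mouse annotation used here holds 99 genes with such a symbol, 94 of them protein coding, and since the authors had removed weakly read genes, each of the 54 had to be expressed to be listed. The members comprised 28 voltage-gated alpha subunits, 9 inward rectifiers, 3 tandem-pore (K2P) leak channels, 4 calcium- or sodium-activated channels, 9 auxiliary subunits and 1 noncoding RNA.

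Retinas were taken at postnatal day 14 from C57Bl6/J mice. The 3 *Mll1KO* samples carried a floxed *Mll1* gene on both alleles (MLL1 fl/fl) together with Chx10-Cre, whose driver is active in retinal progenitors, and the 3 WT samples were wild type without the floxed alleles or the Cre transgene, so the effects of losing *Mll1* and of carrying Cre cannot be told apart. Each sample held a pair of retinas and is a biological replicate, and the comparison asks how loss of *Mll1*, which encodes a histone H3 lysine methyltransferase, changed RNA levels in the whole retina. The libraries held between 17961097 (*Mll1KO* c) and 23836033 (WT a) reads, as recovered from the RPKM values, and a member was read at least 103 times in each sample, with the fewest reads for *Kcns2*.

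Potassium channels set the resting potential of a cell and bring it back after excitation. In photoreceptors, a slow outward current runs through channels made of Kv2 subunits and the electrically silent subunit encoded by *Kcnv2*. Müller glia clear potassium from the retina through inward rectifiers such as the product of *Kcnj10*, and in ganglion cells Kv1 and KCNQ subunits gather near the axon initial segment.

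The targeted gene, *Mll1* (listed as *Kmt2a*), had 36.1, 36.9 and 34.6 RPKM in WT and 22.9, 20.4 and 22.3 RPKM in *Mll1KO*, here and hereafter in the order a, b, c. All 3 *Mll1KO* samples lay below all WT samples, at 60.9% of the WT mean. The log2 fold change was -0.69 (limma, adjusted p = 2.8e-05). The value covers the whole gene, and therefore includes exons that the deletion leaves in place and cells without Cre.

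The samples were checked for retinal markers. All 7 rod markers were listed, among them *Gnat1* at 4157 to 5995 RPKM, as were all 6 cone, 8 bipolar, 7 amacrine and 7 Müller glia markers. Of the pigment epithelium markers, 2 of 5 were listed, and *Rpe65*, *Best1* and *Mlana* were not analysed here. The summed RPKM of those 2, *Ttr* and *Pmel*, was 132, 81.0 and 201 in WT and 64.2, 128 and 64.9 in *Mll1KO*, varying between samples within both genotypes, and neither was called with all samples, though both passed without *Mll1KO* b.

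Of the 54 Kcn genes, 18 differed between the genotypes at a limma adjusted p of 0.05 or less, where the adjustment covered all 11339 genes. That was 33.3% of the members, beside 23.3% of all genes. In *Mll1KO*, 11 members were higher, while 8.81% of all genes were called higher, and 7 were lower, while 14.5% of all genes were called lower. That balance of all genes, 999 higher and 1644 lower, turned with scaling, to 1276 and 1126 with RLE and 1257 and 1164 with TMM, where 12 members were higher and 7 lower. The members' median log2 fold change was -0.0021 against -0.03 for all genes, and it became 0.02 with TMM scaling, so its sign depends on the scaling. The largest changes were 0.62 for *Kcnj14* and -0.58 for *Kcne1l*, beside extremes of 2.80 and -1.85 over all genes of the table. No test was made on the list, and nothing particular to it is read from these shares. The same shares of all genes stand beside the counts of each class and gene list below, which were not tested either.

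In 24 of the 54 members the *Mll1KO* and WT values did not overlap, beside 41.1% of all genes. The *Mll1KO* values lay above WT in 12 members, beside 14.6% of all genes, and below WT in 12, beside 26.5% of all genes. The 18 called members were all among these 24. The other 6 were *Kcnv2*, above WT, and *Kcnk3*, *Kcng4*, *Kcnip3*, *Kcna2* and *Kcnd3*, below WT, with limma adjusted p between 0.0764 and 0.145. Of the 18 calls, 14 held in each of the 14 other settings tried, 7 higher and 7 lower. The calls of *Kcnk1*, *Kcnab1*, *Kcnt1* and *Kcnh2* did not.

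**Figure D1:**
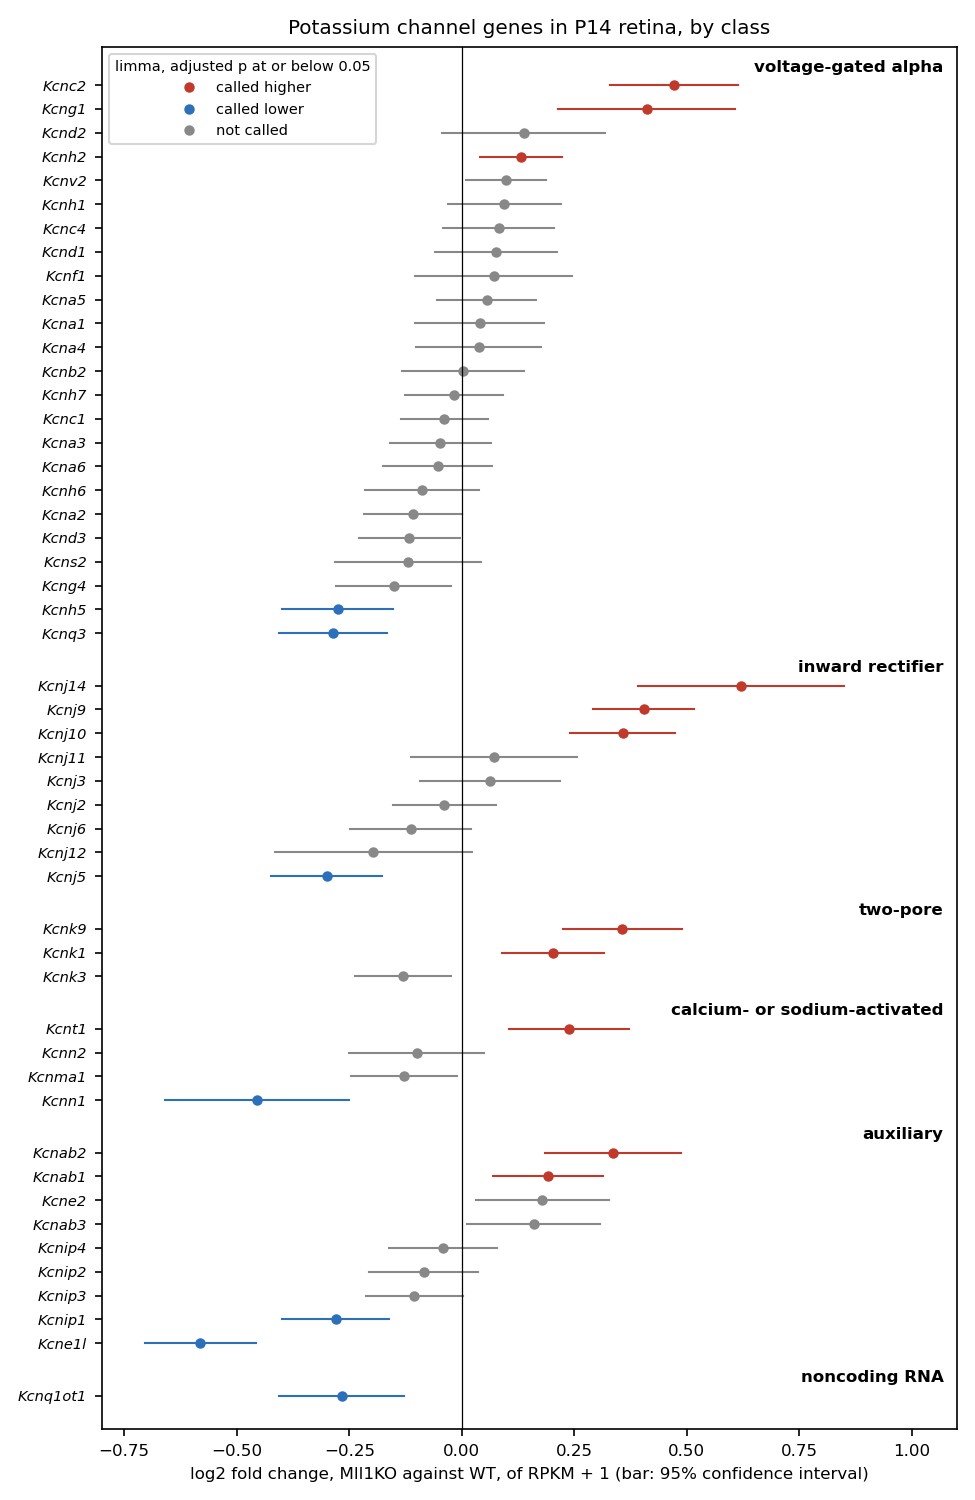
Log2 fold change of RPKM + 1 between *Mll1KO* and WT for 50 of the 54 members, grouped by channel class, with 95% confidence intervals from limma (n = 3 per group). The 11 members called higher reach from 0.13 to 0.62 and the 7 called lower from -0.58 to -0.27.

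The voltage-gated alpha subunits form the pore of channels that open on depolarisation, or join such pores as silent subunits. Of the 28 listed, out of 40 in the class, 3 were called higher (*Kcnc2*, *Kcng1* and *Kcnh2*) and 2 lower (*Kcnh5* and *Kcnq3*), and 23 did not pass. The median log2 fold change of the class was 0.02. Their summed RPKM was 587, 561 and 567 in WT and 628, 587 and 589 in *Mll1KO*, and the lowest *Mll1KO* sum, 587.3, was just above the highest WT sum, 586.5.

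*Kcnv2*, whose silent subunit joins Kv2 in rods and cones, had 129.6, 126.9 and 127.0 RPKM in WT and 140.1, 138.7 and 132.0 RPKM in *Mll1KO*. The 3 *Mll1KO* values were the highest, by a small margin over the tight WT group. Its log2 fold change of 0.10 did not pass (limma, adjusted p = 0.103), while it did with RLE or TMM scaling of the libraries (0.13 with either, limma adjusted p = 0.0493 and 0.0480). Over all settings its limma adjusted p ranged from 0.0480 to 0.236.

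Photoreceptor markers stood beside this value. Of the 7 rod markers, 6 were called higher and none lower, and their summed RPKM was 13100, 12050 and 12550 in WT and 16150, 16310 and 15780 in *Mll1KO*, with 3 of the 6 calls kept in all 14 other settings. Of the 6 cone markers, 5 were called higher and *Opn1sw* lower, and their sum was 264, 276 and 295 RPKM in WT and 318, 340 and 349 RPKM in *Mll1KO*. By mean RPKM, *Opn1sw* led in WT (94.4, beside 90.2 for *Opn1mw*) and *Opn1mw* in *Mll1KO* (133, beside 69.1 for *Opn1sw*). Of the 5 rises 3 were kept in all settings, and that of *Cngb3* was lost in 6 (limma adjusted p = 0.0471, up to 0.153). The sums stood at 128% and 121% of WT, where *Kcnv2* stood at 107%. Such sums follow the most abundant genes, and the median log2 fold changes of the rod and cone markers were 0.27 and 0.30. Among the rod markers, *Pde6b*, which was not called, stood at 107% as well, and *Pde6a*, with the largest rise, at 139%. In bulk samples, fewer or more cells of a type cannot be told apart from less or more RNA per cell, and the part of the markers' change in that of *Kcnv2* was not tested.

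*Kcnb2*, which encodes a Kv2 pore subunit, had 1.91 to 2.28 RPKM over the 6 samples and a log2 fold change of 0.00 (limma, adjusted p = 0.979). Among the silent subunits, *Kcng1* had 3.07, 2.75 and 2.39 RPKM in WT and 4.43, 4.04 and 3.43 RPKM in *Mll1KO*. Each *Mll1KO* sample was above each WT sample, with spread within both groups. *Kcng1* rose by 0.41 on the log2 scale (limma, adjusted p = 0.00909).

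*Kcng4*, a silent subunit known as a marker of alpha ganglion cells and of type 5 bipolar cells, had 11.5, 12.7 and 11.8 RPKM in WT and 9.99, 10.9 and 11.2 RPKM in *Mll1KO*. The groups were separate but close, and the log2 fold change of -0.15 did not pass (limma, adjusted p = 0.0848). Of the 8 bipolar markers, 5 were called lower and none higher, and their sum was 508, 499 and 489 RPKM in WT and 412, 412 and 422 RPKM in *Mll1KO*. Of the 5 calls 4 were kept in all settings, and that of *Grm6*, whose groups overlapped, was lost in 6, both scalings among them (limma adjusted p = 0.0284, up to 0.102). *Kcnf1* and *Kcns2*, the remaining silent subunits, had at most 1.71 RPKM in a sample and overlapped between genotypes.

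The Kv3 subunits activate at high voltage and let neurons fire fast. *Kcnc2*, known from starburst amacrine and ganglion cells, had 5.69, 6.17 and 6.74 RPKM in WT and 9.44, 8.76 and 8.72 RPKM in *Mll1KO*. The *Mll1KO* samples were close to each other and all above WT. *Kcnc2* rose by 0.47 on the log2 scale, with an SE of 0.06 (limma, adjusted p = 0.000809), to 145% of WT.

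*Kcnc1*, which shares those cells, had 22.2, 22.0 and 21.3 RPKM in WT and 22.1, 20.7 and 20.8 RPKM in *Mll1KO*. The groups overlapped, with a log2 fold change of -0.04 and a 95% interval from -0.14 to 0.06 (limma, adjusted p = 0.551). *Kcnc4*, at 13.4 to 15.5 RPKM over all samples, overlapped as well.

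The amacrine markers moved both ways. Of 7, 2 were called higher (*Gad1* and *Slc6a9*) and 3 lower (*Tfap2a*, *Tfap2b* and *Pax6*), and their summed level was 242, 230 and 240 RPKM in WT and 229, 226 and 253 RPKM in *Mll1KO*, led by *Slc32a1*. All 5 calls were kept in every setting, and RLE or TMM scaling raised the number called higher to 4. *Chat*, the defining enzyme of starburst cells, had a log2 fold change of 0.22 that did not pass (limma, adjusted p = 0.0605), but did with RLE or TMM scaling and without *Mll1KO* b or WT c (limma adjusted p from 0.0240 to 0.180 over the settings).

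Of the 6 Kv1 (Shaker-type) subunits, none was called in either direction. *Kcna2*, found at ganglion cell axons with *Kcna1*, had 13.3, 12.5 and 12.4 RPKM in WT and 12.2, 11.4 and 11.7 RPKM in *Mll1KO*. All its *Mll1KO* values were below WT, by a narrow gap (log2 fold change -0.11, limma adjusted p = 0.139).

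*Kcna1* had 5.98, 5.34 and 6.09 RPKM in WT and 6.24, 5.57 and 6.16 RPKM in *Mll1KO*, with overlapping groups (log2 fold change 0.04, limma adjusted p = 0.696). *Kcna5* was the most abundant Kv1 gene, at 28.8 to 32.2 RPKM over the 6 samples. The fold changes of *Kcna3*, *Kcna4*, *Kcna5* and *Kcna6* lay between -0.05 and 0.05 on the log2 scale. Within *Kcna6*, 39.6% of the exon bases are shared with a gene on the opposite strand, so reads of both could not be separated if the counting ignored strand.

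The Kv4 genes *Kcnd1*, *Kcnd2* and *Kcnd3*, which carry A-type currents, were not called. *Kcnd2* had 3.92, 4.02 and 3.75 RPKM in WT and 4.61, 4.90 and 3.72 RPKM in *Mll1KO*. Samples a and b of *Mll1KO* were above WT and sample c was the lowest of all, and without *Mll1KO* c the log2 fold change moved from 0.14 (limma, adjusted p = 0.25) to 0.23 (limma, adjusted p = 0.0380, in a range from 0.0380 to 0.583 over the settings), while without *Mll1KO* b it was 0.07 (limma, adjusted p = 0.583).

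The KCNQ subunits carry the M-current, which opens near rest and holds back repetitive firing. *Kcnq3* had 1.93, 1.78 and 1.72 RPKM in WT and 1.34, 1.35 and 1.22 RPKM in *Mll1KO*. Its *Mll1KO* values formed a tight group below WT, at 72.1% of the WT mean. *Kcnq3* fell by 0.29 on the log2 scale of RPKM + 1 (limma, adjusted p = 0.00464), and by 0.47 on the recovered reads with limma-voom, since adding 1 to such low values shrinks the fold.

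Of the ganglion cell markers, 6 of 7 were listed, with 5 called lower and none higher. Their summed level was 362, 327 and 346 RPKM in WT and 285, 256 and 231 RPKM in *Mll1KO*. By mean RPKM, *Sncg* was the most abundant in WT (159, beside 141 for *Thy1*) and *Thy1* in *Mll1KO* (118, beside 108 for *Sncg*). The RPKM of *Thy1* rests on a length of 1735 bases, where the annotation used here gives 2995. The order of these 2 genes therefore depends on the length used. Of the 5 calls 4 were kept in all settings, and that of *Thy1* was lost in 6, both scalings among them (limma adjusted p = 0.0318, up to 0.117). The defining regulators *Pou4f1* and *Pou4f2* stood at 52.6% and 44.3% of WT. Whether the markers' change had a part in that of *Kcnq3* was not tested.

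In the EAG, ERG and ELK group, *Kcnh5* had 9.92, 9.57 and 10.6 RPKM in WT and 8.39, 8.21 and 7.73 RPKM in *Mll1KO*. Each *Mll1KO* value was below each WT value, and *Kcnh5* fell by 0.28 on the log2 scale (limma, adjusted p = 0.00625). *Kcnh2*, which encodes the pore of the ERG current, had 25.7, 25.0 and 24.4 RPKM in WT and 26.8, 27.6 and 28.2 RPKM in *Mll1KO*.

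The *Kcnh2* groups did not overlap, and the rise was small (0.13, limma adjusted p = 0.0439). It was the smallest change called among the members, and the call was lost without *Mll1KO* b, *Mll1KO* c, WT b or WT c (limma adjusted p = 0.103, 0.144, 0.1202 and 0.122) and without a variance trend (limma adjusted p = 0.0674). *Kcnh2* was named after its values were seen. *Kcnh6*, at 17.4 to 20.2 RPKM over the 6 samples, *Kcnh1* and *Kcnh7* overlapped between the genotypes.

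The inward rectifiers pass potassium more readily into than out of the cell. Of the 9 listed, out of 15 in the class, 3 were called higher and 1 lower, with a median log2 fold change of 0.06. Their summed RPKM was 86.4, 84.3 and 91.8 in WT and 124, 105 and 113 in *Mll1KO*, 131% of WT, and every *Mll1KO* sum was above every WT sum. *Kcnj8*, *Kcnj13* and *Kcnj16*, known from pericytes, pigment epithelium and Müller glia, were not analysed here.

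*Kcnj14*, which encodes a strongly rectifying Kir2 subunit, was the most abundant of the class. It had 27.9, 29.0 and 34.6 RPKM in WT and 54.4, 40.7 and 47.4 RPKM in *Mll1KO*. The WT and *Mll1KO* ranges did not meet, and *Mll1KO* a was the highest. *Kcnj14* rose by 0.62 on the log2 scale, with an SE of 0.10 and a 95% interval from 0.39 to 0.85 (limma, adjusted p = 0.00236), the largest rise among the members.

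*Kcnj10*, whose subunit carries most of the potassium conductance of Müller glia, had 14.04, 12.5 and 12.6 RPKM in WT and 16.7, 17.2 and 16.9 RPKM in *Mll1KO*. The *Mll1KO* samples were close to each other and all above WT, at 130% of the WT mean. *Kcnj10* rose by 0.36 on the log2 scale (limma, adjusted p = 0.00122). The other listed inward rectifier of Müller glia, *Kcnj2*, had 1.83, 1.88 and 1.91 RPKM in WT and 1.75, 1.72 and 1.91 RPKM in *Mll1KO*, with overlapping groups (-0.04, limma adjusted p = 0.629).

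Of the 7 Müller glia markers, 4 were called higher (*Glul*, *Aqp4*, *Clu* and *Apoe*) and 1 lower (*Vim*), and their summed level was 1259, 1251 and 1382 RPKM in WT and 1605, 1677 and 1642 RPKM in *Mll1KO*, 127% of WT, with *Glul* the most abundant. *Rlbp1* and *Slc1a3*, which also define these cells, were not called (0.09 and -0.08, limma adjusted p = 0.188 and 0.251). The glial filament gene *Gfap*, on the astrocyte list, stood at 220% of WT and *S100b* at 140%, both called, and their sum was 7.82, 8.56 and 8.34 RPKM in WT and 15.8, 14.6 and 14.1 RPKM in *Mll1KO*. The part of these markers' change in that of *Kcnj10* was not tested.

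The GIRK subunits, encoded by *Kcnj3*, *Kcnj5*, *Kcnj6* and *Kcnj9*, open when G protein subunits bind to them. *Kcnj9* had 21.5, 21.1 and 22.6 RPKM in WT and 31.1, 28.2 and 28.1 RPKM in *Mll1KO*. The groups were well apart relative to their spread, and *Kcnj9* rose by 0.40 on the log2 scale (limma, adjusted p = 0.000523), to 134% of WT.

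*Kcnj5* moved the other way, with 3.84, 3.801 and 3.72 RPKM in WT and 3.04, 2.69 and 2.95 RPKM in *Mll1KO*. The WT samples were nearly alike and all above *Mll1KO*, and *Kcnj5* fell by 0.30 on the log2 scale (limma, adjusted p = 0.00411). *Kcnj3* had 2.45, 2.19 and 2.04 RPKM in WT and 2.31, 2.17 and 2.64 RPKM in *Mll1KO*, and *Kcnj6* had 2.87, 2.80 and 2.83 RPKM in WT and 2.82, 2.45 and 2.37 RPKM in *Mll1KO*. Both overlapped between the genotypes, and of the exon bases of *Kcnj3* 31.1% lie within a gene on the opposite strand.

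The pore subunit of the ATP-sensitive channel, *Kcnj11*, had 6.76, 5.47 and 5.69 RPKM in WT and 6.83, 6.44 and 5.70 RPKM in *Mll1KO*. Its samples were mixed between the genotypes, and the log2 fold change of 0.07 did not pass (limma, adjusted p = 0.570). *Kcnj12* overlapped too, between 3.81 and 5.81 RPKM over the 6 samples.

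*Kcnj9* and *Kcnj10* lie close to each other on chromosome 1, on opposite strands and head to head, with 11.9 kb between the gene models. Whether other genes lie between them was not examined. They were the only members within 200 kb of each other that were both called. The other such pairs, *Kcna1*, *Kcna5* and *Kcna6* among each other on chromosome 6 and *Kcna2* with *Kcna3* on chromosome 3, had log2 fold changes between -0.11 and 0.05 and no call. The 2 called genes are known from different cells, *Kcnj10* from glia and *Kcnj9* from neurons.

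The promoter table of RefSeq (GRCm38.p6) held a window for 36 of the 54 members and 77.4% of all genes, so a comparison of CpG content between members called higher, lower or not called was void, with 66.7% of the members covered. Windows were found for 7 of 11 members called higher and 6 of 7 called lower. The 250 bases before the start are shown for *Kcnj9* and *Kcnj10*, which were both called higher, 5′ to 3′ on each gene's own strand, with CG in capitals. The *Kcnj9* window is chr1:172329323-172329572 on the minus strand and the *Kcnj10* window chr1:172340960-172341209 on the plus strand, and neither overlaps an exon of its gene.
Kcnj9: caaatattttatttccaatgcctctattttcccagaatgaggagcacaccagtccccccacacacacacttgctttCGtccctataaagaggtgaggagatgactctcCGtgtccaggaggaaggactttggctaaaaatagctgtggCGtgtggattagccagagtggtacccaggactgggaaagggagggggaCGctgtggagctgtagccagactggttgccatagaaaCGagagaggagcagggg
Kcnj10: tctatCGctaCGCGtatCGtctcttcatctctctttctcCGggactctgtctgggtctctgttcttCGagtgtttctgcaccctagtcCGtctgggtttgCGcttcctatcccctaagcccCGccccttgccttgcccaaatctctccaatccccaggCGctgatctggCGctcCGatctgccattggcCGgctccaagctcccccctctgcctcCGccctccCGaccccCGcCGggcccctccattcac

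*Kcnj9* held 5 CG pairs in this stretch, and 91.9% of the 8773 windows of listed genes held as many or more. *Kcnj10* held 17, which was also the median of those windows, and 50.7% held as many or more. The motif searched was CG, which reads alike on both strands and occurred in 99.3% of the windows. GC content was 52.0% for *Kcnj9* and 62.0% for *Kcnj10*.

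**Figure D2:**
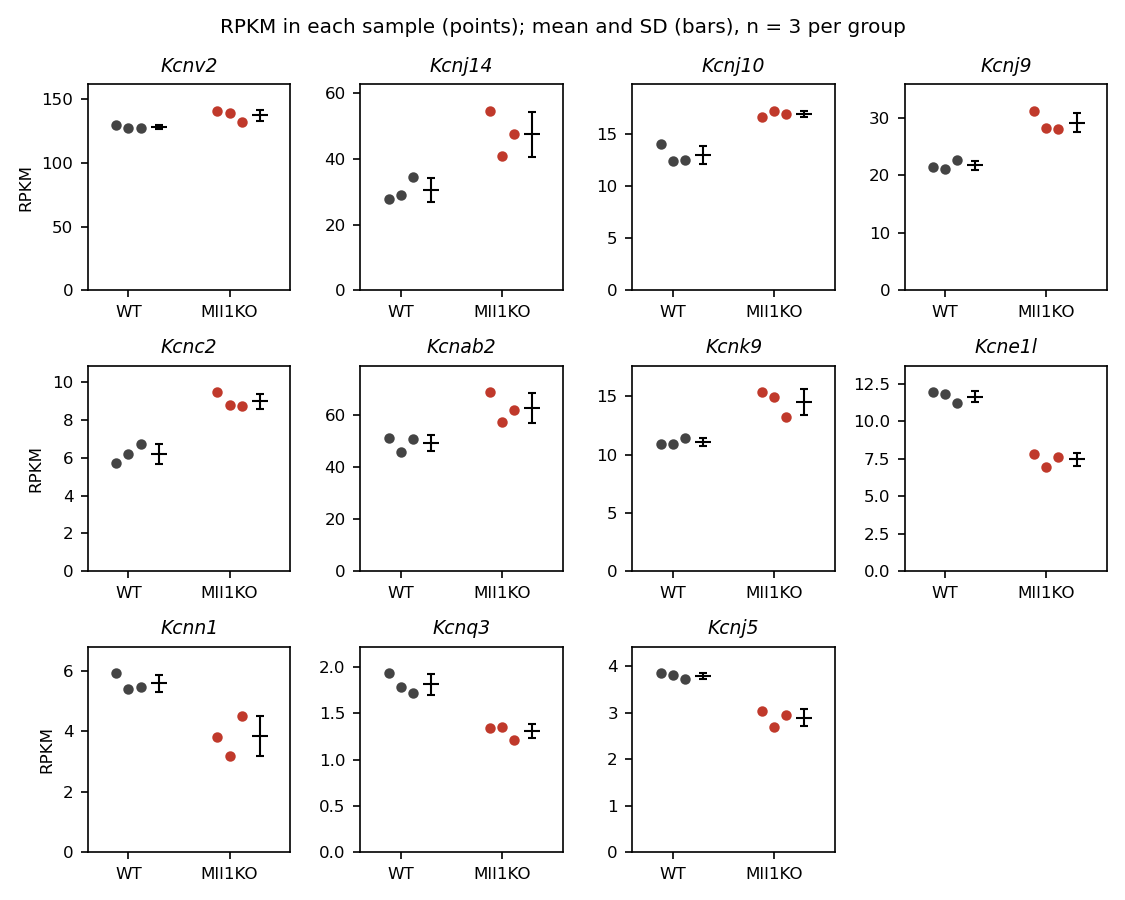
RPKM of 11 members in each sample, with the mean and SD of 3 samples per genotype beside the points. *Kcnv2* is separate between WT and *Mll1KO* by a small margin, and the other 10 are separate and called, 6 higher and 4 lower.

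The tandem-pore channels carry leak current. Of 14 in the class, 3 were listed, and 2 were called higher. *Kcnk9*, an acid-sensitive TASK channel, had 10.9, 10.9 and 11.5 RPKM in WT and 15.3, 14.9 and 13.2 RPKM in *Mll1KO*. The WT samples were tight and all *Mll1KO* samples above them, and *Kcnk9* rose by 0.36 on the log2 scale (limma, adjusted p = 0.00240).

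*Kcnk1*, the most abundant of the 3, had 15.1, 15.3 and 15.6 RPKM in WT and 16.6, 18.1 and 18.7 RPKM in *Mll1KO*. The groups were separate, with a rise of 0.20 on the log2 scale (limma, adjusted p = 0.0185). The call was lost without *Mll1KO* b, *Mll1KO* c, WT a or WT b, with limma adjusted p of 0.0578, 0.0756, 0.0549 and 0.0597.

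*Kcnk3*, the other TASK channel and named after its values were seen, had 14.4, 14.3 and 14.7 RPKM in WT and 13.8, 12.6 and 13.0 RPKM in *Mll1KO*. Its *Mll1KO* values were all below WT, and the log2 fold change of -0.13 passed only without *Mll1KO* a (limma, adjusted p = 0.0764 with all samples and 0.0371 without it). The 3 genes together had 40.3, 40.5 and 41.8 RPKM in WT and 45.8, 45.6 and 44.9 RPKM in *Mll1KO*. The microglial channel gene *Kcnk13* was not analysed here.

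Among the calcium- and sodium-activated channels, 4 of 8 were listed, 1 called higher and 1 lower. *Kcnma1*, the BK channel that limits release from A17 amacrine cells, was the most abundant, with 24.4, 23.6 and 22.2 RPKM in WT and 22.7, 20.3 and 21.0 RPKM in *Mll1KO*. *Mll1KO* a lay within the WT range. The log2 fold change of -0.13 did not pass (limma, adjusted p = 0.110), and passed without that sample (-0.17, limma adjusted p = 0.0450, in a range from 0.0450 to 0.288 over the settings).

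*Kcnn1*, which encodes the small-conductance SK1 channel, had 5.92, 5.40 and 5.48 RPKM in WT and 3.82, 3.18 and 4.52 RPKM in *Mll1KO*. The *Mll1KO* samples differed among themselves but all lay below WT, at 68.6% of the WT mean. *Kcnn1* fell by 0.46 on the log2 scale (limma, adjusted p = 0.00652). *Kcnn2*, the SK2 gene, had 3.803 to 4.47 RPKM in WT and 3.57 to 4.02 RPKM in *Mll1KO*, with overlap.

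*Kcnt1*, the sodium-activated Slack channel, had 5.13, 4.97 and 5.51 RPKM in WT and 6.54, 6.52 and 5.89 RPKM in *Mll1KO*. Its groups did not overlap, and it rose by 0.24 on the log2 scale (limma, adjusted p = 0.0185). The call was lost without *Mll1KO* b, WT a or WT b (limma, adjusted p = 0.0593, 0.0553 and 0.0750).

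Auxiliary subunits change the gating or trafficking of the pore proteins. Of 17 in the class, 9 were listed, 2 called higher and 2 lower, with a median log2 fold change of -0.04. The Kvβ genes *Kcnab1*, *Kcnab2* and *Kcnab3* bind Kv1 channels on the cytoplasmic side. *Kcnab2*, the most abundant of the class, had 51.5, 46.0 and 50.8 RPKM in WT and 68.9, 57.4 and 62.0 RPKM in *Mll1KO*.

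Every *Mll1KO* sample of *Kcnab2* lay above every WT sample, and it rose by 0.34 on the log2 scale (limma, adjusted p = 0.00646). *Kcnab1* had 4.90, 4.97 and 5.37 RPKM in WT and 5.73, 6.04 and 6.05 RPKM in *Mll1KO*, a rise of 0.19 without overlap (limma, adjusted p = 0.0310). That call was lost without *Mll1KO* b, *Mll1KO* c, WT a or WT b (limma, adjusted p = 0.0833, 0.0966, 0.0886 and 0.103). *Kcnab3*, named after its values were seen, overlapped through *Mll1KO* a, and passed without that sample (limma, adjusted p = 0.111 with it and 0.0298 without).

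The MinK-type subunits cross the membrane a single time. *Kcne1l*, also called *Kcne5* and located on the X chromosome, had 11.9, 11.8 and 11.2 RPKM in WT and 7.83, 6.95 and 7.61 RPKM in *Mll1KO*. Both groups were tight and far apart, with *Mll1KO* at 64.0% of WT. *Kcne1l* fell by 0.58 on the log2 scale, with an SE of 0.06 and a 95% interval from -0.70 to -0.46 (limma, adjusted p = 0.000112), the largest fall among the members and the smallest adjusted p.

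*Kcne2* had 28.8, 26.2 and 29.9 RPKM in WT and 29.2, 34.2 and 33.1 RPKM in *Mll1KO*, and was named after its values were seen. *Mll1KO* a lay within the WT range, and the log2 fold change of 0.18 passed only without that sample (limma, adjusted p = 0.0790 with all samples and 0.0195 without it).

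The KChIP genes encode calcium-binding subunits of Kv4 channels. *Kcnip1* had 7.82, 7.91 and 8.39 RPKM in WT and 6.29, 6.29 and 6.76 RPKM in *Mll1KO*. The groups were clearly separate, and *Kcnip1* fell by 0.28 on the log2 scale (limma, adjusted p = 0.00496). *Kcnip3* had 13.7, 13.1 and 12.6 RPKM in WT and 11.7, 12.2 and 12.5 RPKM in *Mll1KO*.

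The *Kcnip3* groups were separate by a narrow gap, and the log2 fold change of -0.11 did not pass (limma, adjusted p = 0.145). *Kcnip2* and *Kcnip4*, at 7.27 to 9.87 RPKM over all samples, overlapped between the genotypes. The log2 fold changes of all 4 KChIP genes were negative, from -0.28 to -0.04, and only that of *Kcnip1* was called. Beside them, 6765 of all 11339 genes had a negative log2 fold change, so nothing particular to the family is read from this.

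The noncoding RNA *Kcnq1ot1*, transcribed antisense to *Kcnq1* and known from imprinting of that region, had 1.26, 1.30 and 1.14 RPKM in WT and 0.970, 0.887 and 0.716 RPKM in *Mll1KO*. All *Mll1KO* values were lower, and it fell by 0.27 on the log2 scale of RPKM + 1 (limma, adjusted p = 0.0130) and by 0.52 on recovered reads. It was the member with the lowest mean level, and *Kcnq1* itself was not analysed here.

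Channels are often built from pairs of subunits, and 7 such pairs are given here. The ratio of their RPKM was compared on the log2 scale with a two-sided exact permutation test, whose smallest possible p with 3 against 3 samples is 0.1, so none could reach 0.05. The p-values were adjusted over all 9 pairs tested. Of the 7 ratios, 3 did not overlap between the genotypes, beside 41.1% of all single genes. No share over other pairs of genes was taken, and nothing particular to these pairs is read from the count.

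The ratio of *Kcnc2* to *Kcnc1* was 0.257, 0.281 and 0.317 in WT and 0.427, 0.423 and 0.419 in *Mll1KO*. The *Mll1KO* ratios were nearly equal and all above WT, by 0.58 on the log2 scale (exact permutation p = 0.1, adjusted 0.225).

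The β subunit gene *Kcnab2* stood at 3.87, 3.68 and 4.10 times the RPKM of *Kcna2* in WT and at 5.66, 5.04 and 5.32 times in *Mll1KO*, a difference of 0.46 without overlap (exact permutation p = 0.1, adjusted 0.225). For the ATP-sensitive channel, the ratio of the sulfonylurea receptor gene *Abcc8* to *Kcnj11* was 1.49, 1.76 and 1.65 in WT and 1.38, 1.39 and 1.43 in *Mll1KO*, lower by a difference of -0.22, also without overlap (exact permutation p = 0.1, adjusted 0.225). Neither gene of that last pair was called on its own. The GIRK ratios overlapped, with a difference of 0.33 for *Kcnj9* to *Kcnj3* and of -0.25 for *Kcnj6* to *Kcnj3*, as did *Kcna2* to *Kcna1* (-0.16) and *Kcnip3* to *Kcnd2* (-0.28), each with an exact permutation p of 0.2 (adjusted 0.225). With RPKM + 1 in the ratio, *Kcna2* to *Kcna1* and *Kcnj9* to *Kcnj3* had the smallest possible exact permutation p, 0.1 (adjusted 0.15), with differences of -0.15 and 0.34. Without *Mll1KO* c the difference for *Kcnj6* to *Kcnj3* was -0.12.

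**Figure D3:**
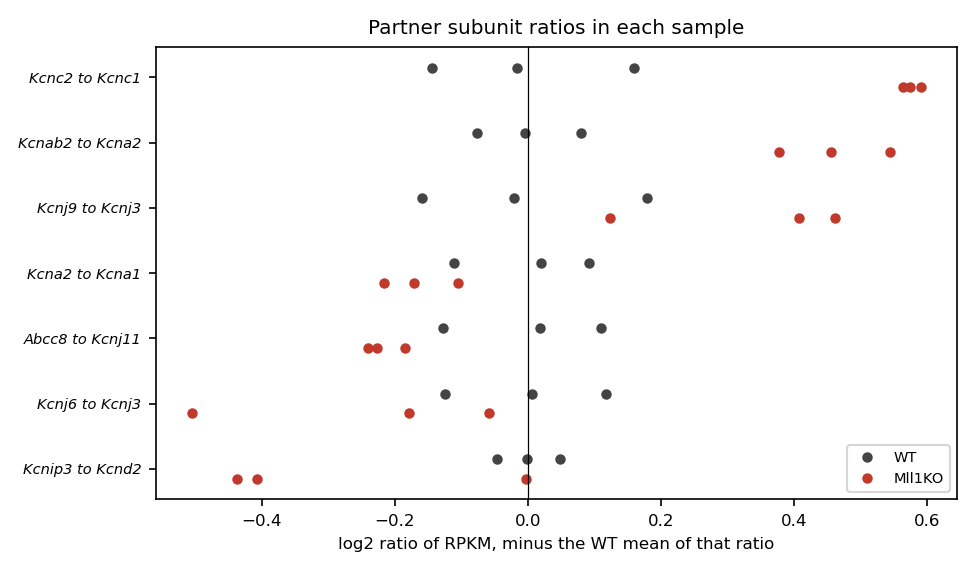
Log2 ratio of the RPKM of partner subunits in each sample, less the WT mean of the same ratio, for 7 pairs. The ratios of *Kcnc2* to *Kcnc1* and *Kcnab2* to *Kcna2* are higher in *Mll1KO* without overlap, that of *Abcc8* to *Kcnj11* is lower without overlap, and the other 4 overlap.

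Genes whose products work with potassium channels, but whose symbols do not begin with Kcn, moved in both directions. Of 24 channel partners, 21 were listed, 3 called higher and 4 lower, with a median log2 fold change of -0.05. The largest rise was that of *Aqp4*, the water channel held beside the *Kcnj10* product in Müller endfeet, with 13.0, 13.2 and 12.8 RPKM in WT and 17.4, 19.1 and 16.9 RPKM in *Mll1KO*. All *Mll1KO* values were above WT (0.42, limma adjusted p = 0.000491), and *Aqp4* is also on the Müller list.

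*Dag1*, which anchors both of these proteins through dystroglycan, was called lower (-0.21, limma adjusted p = 0.0286), a call lost in 6 of the 14 other settings, both scalings among them, where the limma adjusted p reached 0.0954. The largest fall was that of *Adam23*, a receptor for the LGI proteins that act on Kv1 channels, with 5.76, 5.49 and 5.17 RPKM in WT and 4.34, 4.61 and 3.75 RPKM in *Mll1KO*. Its groups did not overlap (-0.31, limma adjusted p = 0.0121). *Cntnap2*, which clusters Kv1 channels at axons, and *Abcc9* were also called lower, and the Kv4 partner *Dpp6* and the Kv2 partner *Amigo1* higher, the last by 0.18 (limma, adjusted p = 0.0196). Of these 4, *Cntnap2* kept its call throughout, while that of *Abcc9* was lost in 7 settings, both scalings among them, that of *Amigo1* in 3 and that of *Dpp6* in 1, with limma adjusted p up to 0.107, 0.0700 and 0.0551.

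Of 21 potassium pumps and cotransporters, 18 were listed, 5 called higher and 3 lower, with a median log2 fold change of 0.10. Of these calls, 3 rises and 2 falls were kept in all settings, that of *Slc12a2* was lost in 9 (limma adjusted p = 0.0440, up to 0.145), and RLE or TMM scaling gave 7 higher and 2 lower. *Fxyd7*, a neuronal modifier of the pump, had 28.8, 31.7 and 27.6 RPKM in WT and 23.2, 20.6 and 21.6 RPKM in *Mll1KO*, and fell by 0.41 on the log2 scale, without overlap (limma, adjusted p = 0.00117). Called rises included those of *Slc24a1*, the exchanger of rod outer segments (0.36, limma adjusted p = 0.000656), and of *Fxyd1*, another modifier of the pump (0.36, limma adjusted p = 0.00173), with all 3 *Mll1KO* samples above WT for both genes, which were chosen after their values were seen.

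Markers of other cells are given for the remaining lists. Horizontal cell markers, 5 of 7 listed, had 4 called lower and none higher, and summed to 107.5, 110.6 and 106.5 RPKM in WT and 77.8, 80.2 and 83.1 RPKM in *Mll1KO*, led by *Sept4*. Pericyte markers, all 4 listed, had 3 called lower, *Abcc9* among them, and summed to 44.8, 41.0 and 41.3 RPKM in WT and 35.3, 34.8 and 38.1 RPKM in *Mll1KO*, led by *Rgs5*, with 1 of the 3 calls kept in all settings. Endothelial markers had 1 of 4 called in each direction and summed to 42.6, 41.5 and 43.7 RPKM in WT and 39.2, 36.0 and 36.4 RPKM in *Mll1KO*, led by *Cldn5*, and *Cdh5* passed as lower without WT b. Of the microglial list 2 of 5 and of the erythrocyte list 3 of 3 genes were listed, none of them called with all samples, though the 3 erythrocyte genes passed without WT c. The former summed to 6.64, 6.71 and 6.16 RPKM in WT and 6.32, 7.49 and 6.53 RPKM in *Mll1KO*, led by *Csf1r*, and the latter to 93.9, 72.6 and 187 RPKM in WT and 121, 163 and 191 RPKM in *Mll1KO*, led by *Hbb-bs*.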

How the data were processed

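Whole mouse retinas of postnatal day 14 were measured by RNA-seq in 3 WT and 3 *Mll1KO* samples, compared as groups. Per the submitters' notes, reads were aligned to mm10 with STAR 2.0.4b and counted with Subread's featureCounts 1.45, and the authors deposited RPKM for each sample, made with edgeR 3.17.9. The table's columns of the authors' own comparison hold log2 fold change, mean log2 CPM, p and FDR, and were not used. Of 11404 lines, 59 gene IDs stood in more than 1 line with equal values and were kept once, leaving 11339 genes, and 18 symbols turned into dates were restored by gene ID.

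Reads per gene were recovered from RPKM, whose values gave whole reads within 0.005 for 100% of genes. The libraries held 23836033, 19777205 and 19323512 reads in WT a, b and c and 23348923, 19855963 and 17961097 in *Mll1KO* a, b and c. Log2(RPKM + 1) was fitted with limma 3.58.1 (R 4.3.3) with a variance trend and Benjamini-Hochberg adjustment over 11339 genes, with a threshold of 0.05. This and limma-voom were tested on simulated data. The simulation gave every gene the same dispersion and balanced rises with falls, so it does not cover the imbalance of calls in these data. Ratios of 9 partner pairs were compared by exact permutation, and 7 are given. Python 3.11.15 made the tables (pandas 2.3.3, numpy 2.4.6, scipy 1.17.1) and the figures (matplotlib 3.10.9). Gene models came from GENCODE vM21 and promoter sequences from RefSeq (GRCm38.p6). Lengths behind the RPKM equal the vM21 exon length for 53.4% of genes, so RPKM compares samples better than genes.

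The rule for genes named with values took, in each class, the most abundant member and the 2 called members with the largest rise and the 2 with the largest fall without overlap, the members known from a cell type, those of the partner pairs, *Kmt2a*, and the called genes with the largest rise and fall among channel partners and among pumps and cotransporters. Some genes, several of which this rule took, are not reported here by name, though counts and sums include them. Other genes given with values, among them *Kcnh2*, *Kcnk3*, *Kcnab3*, *Kcne2*, *Slc24a1*, *Fxyd1* and single markers, were chosen after their values were seen. Members and lists were chosen with earlier results of these data known. Marker lists covered rods, cones, horizontal, bipolar, amacrine and ganglion cells, Müller glia, astrocytes, pigment epithelium, microglia, endothelium, pericytes and erythrocytes. Alternatives were a pseudocount of 0.1 or 5, a mean RPKM of at least 1, RLE and TMM scaling, no variance trend, a replicate block, limma-voom on recovered reads, RPKM + 1 in the ratios, and leaving out each sample.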

Additional observations from a re-analysis of the deposited data

How the results depend on the processing

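Of the 18 calls among Kcn genes, 14 held in all 14 alternative fits. Leaving out each replicate in turn gave 7 to 13 Kcn genes called higher and 7 to 9 lower, beside 11 and 7 with all samples, and 1704 to 2536 genes called in all, 1030 to 1559 of them lower and 674 to 977 higher, beside 2643, 1644 and 999. With fewer samples the test has less power. Kcn genes without overlap numbered 28 to 32 without a replicate, where 47.1% to 53.0% of all genes did not overlap. RLE scaling called 1276 genes higher and 1126 lower and TMM scaling 1257 and 1164, against 999 and 1644, and both added *Kcnv2* (0.13 with either) to the Kcn genes called higher.

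Among the 50 Kcn genes given here, 4 reversed direction in some setting, all uncalled and near 0. Without a replicate, *Kcna1* ranged from -0.01 to 0.0839, *Kcna4* from -0.0147 to 0.0846 and *Kcnb2* from -0.0518 to 0.0335, and *Kcnh7* had 0.0078 with RLE and 0.0060 with TMM scaling. The cause was not tested.

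With the replicate letter as a block, 2242 genes were called, 895 higher and 1347 lower, with 10 Kcn genes higher and 7 lower, and *Kcnh2* had a limma adjusted p of 0.0815. Samples with the same letter did not deviate together (correlations -0.04, -0.19 and -0.01). The deviations were taken within each genotype, so these correlations constrain each other and cannot exclude pairing. In both genotypes, sample a had the most reads. Whether the letters pair the samples is therefore not known. A pseudocount of 0.1 or 5, the filter on RPKM and limma-voom kept all 18 Kcn calls, and the fit without a variance trend kept 17.

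Limits: with 3 samples per group, power is low, and an exact test cannot reach 0.05. Bulk RNA does not separate cell number from RNA per cell. WT samples lacked Cre. Strand use in counting is not stated, and several members share exon bases with other genes.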
